A study of Mus musculus with 6 samples.

Results

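Tumour cells display surface ligands that T cells, natural killer (NK) cells and macrophages read through inhibitory or activating receptors, and 10 genes for such ligands were followed here in B16-BL6 mouse melanoma cells. The genes were chosen by symbol, with earlier results of these data known: Cd274, Cd276, Lgals9, Nectin1, Nectin2, Nectin3, Pvr, Raet1d, Raet1e and Cd47. All 10 were found among the 22535 gene rows of the expression table, and 9 of them reached the mean of 1 CPM (reads of a gene scaled to the library's total, the deposited unit) over the 6 libraries that was asked of a gene before it was tested. Nectin1 did not.

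B16-BL6 is an invasive subline of the B16 melanoma, which arose in a C57BL/6 mouse. Polyadenylated RNA was sequenced from 3 libraries of cells labelled with the genotype sgControl and 3 of cells labelled sgNDUFS4, where sg stands for a CRISPR guide RNA, in the second group one against Ndufs4, a subunit of mitochondrial complex I. Both groups were grown in the same DMEM medium with serum and pyruvate, with no treatment and no immune cells added, and the series' labels ask which transcriptional changes go with the immunogenicity of cells that received this guide. The labels do not say whether either group is a clone or a pool, nor whether replicates are separate cultures. The p-values set a change only against the spread between libraries of a group, which could be technical spread. In limma that spread is partly drawn from the other genes tested, not from a gene's own 3 libraries per group alone. The guide cannot be told apart from other differences between the cell populations.

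Between 20090607 and 25947374 reads per library had been counted in genes. Ndufs4 was at 54.3, 55.0 and 52.4 CPM in sgControl and at 14.99, 15.98 and 16.8 CPM in sgNDUFS4, so it was lower in every sgNDUFS4 library but still detected. Of 11063 genes tested, limma called 3514 higher in sgNDUFS4 (31.8%) and 2241 lower (20.3%) at an adjusted p below 0.05, so 52% changed in one direction or the other. With TMM scaling, which sets libraries to a common trimmed mean, 2750 were higher and 2853 lower, and the share of calls that were higher went from 61.1% to 49.1%. Groups of 3 libraries were free of overlap in 57.2% of these genes, with sgNDUFS4 above in 35% and below in 22.2%. Any count among the ligands stands against these shares.

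The ligands belong to a few families. CD274 (PD-L1) binds PD-1 on T cells and restrains them, and CD276 (B7-H3) is a relative in the B7 family whose receptor is not settled. The nectins and the poliovirus receptor PVR (CD155) are immunoglobulin-like adhesion molecules, and NECTIN2 and PVR are shared by the activating receptor DNAM-1 and the inhibitory receptors TIGIT, CD96 or PVRIG. RAE-1 proteins are stress-inducible ligands of NKG2D, the activating receptor of NK cells, galectin-9 is a secreted and surface-bound lectin that binds TIM-3, and CD47 binds SIRP-alpha on macrophages and restrains phagocytosis.

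Of the 9 ligands tested, 6 rose in sgNDUFS4, 0 fell and 3 did not pass. By limma on log2(CPM + 0.5) (Benjamini-Hochberg adjusted over the 11063 genes), Raet1e, Cd276, Raet1d, Nectin2, Lgals9 and Nectin3 rose, and Cd274, Cd47 and Pvr did not pass. The median log2 fold change of the 9 was 0.57, beside 0.06 over all genes tested. The ligands were chosen with earlier results of these data known, so these counts and this median describe the set and do not test it. For 7 of the 9 there was no overlap between groups, with sgNDUFS4 above sgControl in 6 (background 35%) and below it in 1 (background 22.2%), Pvr. These 6 are not the 6 called, since they include Cd274, which did not pass, and leave out Nectin3, which overlapped. With TMM scaling 5 were higher and 1 lower, beside 24.9% and 25.8% of all genes tested, and edgeR on recovered reads also called 5 higher and 1 lower, beside 24.6% and 25.9%. A change in the number of cells that carry an mRNA and a change in its amount per cell cannot be told apart in these bulk libraries. Raet1e reached the filter through the sgNDUFS4 libraries, since its sgControl mean was below 1 CPM. The plot of the values by library shows all 10 genes.

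**Figure D1:**
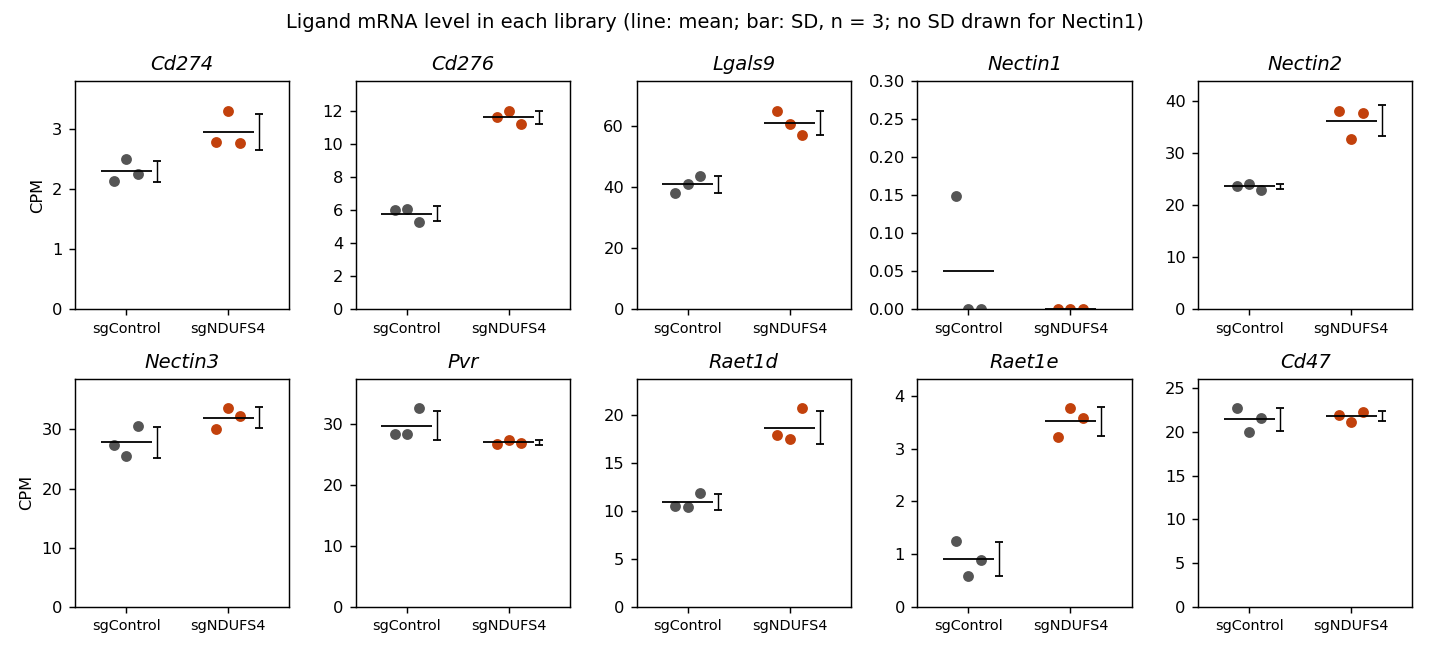
Level of each ligand mRNA in CPM (vertical axis, from 0, a separate scale per gene) in the 3 sgControl and 3 sgNDUFS4 libraries; points are libraries, lines are means and bars are SD. The points of the groups do not overlap for Cd274, Cd276, Lgals9, Nectin2, Pvr, Raet1d and Raet1e, and they overlap for Nectin3 and Cd47.

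The NKG2D ligands Raet1d and Raet1e both rose, and Raet1e had the largest log2 fold change of the 9 ligands tested. That gene reached the filter only through the sgNDUFS4 libraries, which limits its test and its rank. Raet1e (ENSMUSG00000053219.15, chromosome 10, 22158569 to 22374139, plus strand, GRCm38) was at 1.24, 0.592 and 0.898 CPM in sgControl and at 3.21, 3.76 and 3.58 CPM in sgNDUFS4. These values rested on 25, 14 and 20 reads in sgControl and on 83, 90 and 93 reads in sgNDUFS4. The mean went from 0.911 ± 0.326 to 3.52 ± 0.280 CPM (SD, n = 3 each), a ratio of 3.86. Every sgNDUFS4 library was above every sgControl library, and the log2 fold change was 1.53 (SE 0.25, limma adjusted p = 9.6e-06), which understates the ratio because of the pseudocount of 0.5. Raet1d (ENSMUSG00000078452.10, chromosome 10, 22360552 to 22374139, plus strand) was at 10.6, 10.4 and 11.9 CPM in sgControl and at 17.9, 17.5 and 20.7 CPM in sgNDUFS4. It rose from 10.9 ± 0.797 to 18.7 ± 1.73 CPM (SD, n = 3 each), a ratio of 1.71 (log2 fold change 0.75, SE 0.11, limma adjusted p = 2.7e-06), again with no overlap.

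These 2 gene models overlap, with the whole of Raet1d inside the span of Raet1e, and RefSeq gives Raet1e 2 starts. The stretches before the Raet1d start and the nearer Raet1e start show how alike these are. The first 250 bases of the RefSeq promoter windows are given 5′ to 3′ on the gene's strand (build GRCm38.p6), with the bases that differ between them in capitals.

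Raet1d, chr10:22361644-22361893, plus strand: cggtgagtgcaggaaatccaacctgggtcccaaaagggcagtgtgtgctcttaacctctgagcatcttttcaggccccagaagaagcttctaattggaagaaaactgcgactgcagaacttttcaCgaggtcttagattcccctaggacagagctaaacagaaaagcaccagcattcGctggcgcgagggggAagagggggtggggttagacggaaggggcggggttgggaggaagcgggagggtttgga

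Raet1e, start nearer to Raet1d, chr10:22173247-22173496, plus strand: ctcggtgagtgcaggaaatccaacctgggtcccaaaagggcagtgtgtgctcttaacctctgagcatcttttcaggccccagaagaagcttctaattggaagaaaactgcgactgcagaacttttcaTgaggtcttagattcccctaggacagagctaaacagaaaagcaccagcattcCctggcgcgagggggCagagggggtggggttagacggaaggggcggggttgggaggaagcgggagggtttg

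Over 298 aligned bases of these full windows, 295 (99.0%) were identical and 3 differed. Counted from the first base of the Raet1d window, with the Raet1d base first, the differences were C126T, G178C and A193C. The window of the other Raet1e start, at 22158319 to 22158618, aligned with that of Raet1d over only 9 bases, 5 of them identical (55.6%), and is not shown. In the transcripts of GENCODE M21, 478 of the 1340 windows of 100 bases from Raet1d (35.7%) also occur in Raet1e, and 363 exonic bases (25.2% of those of Raet1d) belong to both gene models. How the authors' counting divided such reads is not given in the sources used here, so the split between the 2 genes is uncertain. Their summed level lay at 11.8, 10.99 and 12.7 CPM in sgControl and at 21.1, 21.3 and 24.3 CPM in sgNDUFS4. This sum went from 11.8 ± 0.879 to 22.2 ± 1.78 CPM (SD, n = 3 each), a ratio of 1.88. It does not depend on the split if each read shared by Raet1d and Raet1e was counted for 1 of these 2 genes. Shared reads that were dropped or counted for both would change the sum, and which applies is not known.

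Within each library, the log2 ratio of Raet1e to Raet1d was -2.66, -3.32 and -3.14 in sgControl and -2.31, -2.08 and -2.38 in sgNDUFS4. Raet1e therefore gained on Raet1d by 0.79 on the log2 scale, with no overlap between the groups. The exact two-sided permutation test gave p = 0.1, the smallest that 3 libraries against 3 can give (adjusted p = 0.1 over the 5 ratios computed). The ratio rests on the uncertain split of reads. Its change was 0.53 with a pseudocount of 1 and 1.12 with a pseudocount of 0.1.

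Among the nectins, which bind one another across cell contacts, Nectin2 rose. Nectin2 (ENSMUSG00000062300.14, chromosome 7, 19716644 to 19750483, minus strand) was at 23.6, 24.1 and 22.9 CPM in sgControl and at 38.1, 32.7 and 37.7 CPM in sgNDUFS4. The lowest sgNDUFS4 library, replicate 2, was still above all sgControl libraries. The mean went from 23.5 ± 0.565 to 36.2 ± 2.98 CPM (SD, n = 3 each), a ratio of 1.54 (log2 fold change 0.61, SE 0.08, limma adjusted p = 4.9e-07). Nectin3 (ENSMUSG00000022656.15, chromosome 16, 46387706 to 46498525, minus strand), which binds nectin-1, nectin-2 and PVR, was at 27.4, 25.5 and 30.7 CPM in sgControl and at 30.1, 33.5 and 32.3 CPM in sgNDUFS4. One sgControl library lay above the lowest sgNDUFS4 library. Its log2 fold change of 0.20 (SE 0.08, 95% confidence interval 0.03 to 0.37) passed at a limma adjusted p of 0.042, and the call was lost in 12 of 18 other fits, among them TMM scaling (0.14, adjusted p = 0.15) and the fits without sgControl replicate 1 or 2 or without sgNDUFS4 replicate 2 or 3 (0.14 to 0.19, adjusted p of 0.094 to 0.20). Nectin1 (ENSMUSG00000032012.8, chromosome 9, 43743984 to 43807461, plus strand), the receptor by which herpes simplex virus enters cells, had 3 reads in sgControl replicate 1 and 0 reads in the other 5 libraries. A count of 0 allows up to 3 reads, or between 0.116 and 0.135 CPM in those 5 libraries, counting error only.

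Pvr did not follow Nectin2. Pvr (ENSMUSG00000040511.14, chromosome 7, 19903578 to 19921160, minus strand) was at 28.3, 28.4 and 32.5 CPM in sgControl and at 26.7, 27.4 and 26.9 CPM in sgNDUFS4. All sgNDUFS4 libraries were below all sgControl libraries, by little. The log2 fold change was -0.14 (SE 0.08, 95% confidence interval -0.30 to 0.03, limma adjusted p = 0.16). With TMM scaling, quantile normalization or edgeR on the recovered reads it was at -0.19, -0.20 and -0.20 and passed (adjusted p of 0.044, 0.037 and 0.038). It did not pass with DESeq2 (adjusted p = 0.053), and without sgControl replicate 3 it was at -0.07 (adjusted p = 0.51). Since NECTIN2 and PVR share receptors, their ratio was taken within each library, where scaling between libraries cancels apart from the pseudocount. The log2 ratio of Pvr to Nectin2 was 0.26, 0.23 and 0.50 in sgControl and -0.50, -0.25 and -0.48 in sgNDUFS4, so Pvr was the more counted of the 2 in every sgControl library and the less counted in every sgNDUFS4 library. The difference was -0.74 (exact permutation p = 0.1, adjusted p = 0.1 over 5 ratios). The log2 ratio of Nectin2 to Nectin3 was -0.21, -0.08 and -0.41 in sgControl and 0.33, -0.03 and 0.22 in sgNDUFS4, a difference of 0.41 (exact permutation p = 0.1, adjusted p = 0.1). The planned ratio of Nectin2 to Nectin1 (difference 0.73, exact permutation p = 0.1, adjusted p = 0.1) has a denominator of at most 3 reads, and its size moves with those reads and the pseudocount. It was 0.61 without sgControl replicate 1, the library that held them, and 1.05 with a pseudocount of 0.1.

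Of the B7 relatives, Cd276 rose and Cd274 did not pass. Cd276 (ENSMUSG00000035914.11, chromosome 9, 58524298 to 58555437, minus strand) was at 5.97, 6.09 and 5.25 CPM in sgControl and at 11.6, 12.003 and 11.2 CPM in sgNDUFS4. Replicates lay close together and the groups were far apart. The mean went from 5.77 ± 0.453 to 11.6 ± 0.394 CPM (SD, n = 3 each), a ratio of 2.01 (log2 fold change 0.95, SE 0.13, limma adjusted p = 1.5e-06), and 95.6% of the genes tested had a change of that size or smaller. Cd274 (ENSMUSG00000016496.7, chromosome 19, 29367455 to 29388095, plus strand) was at 2.14, 2.49 and 2.24 CPM in sgControl and at 2.79, 3.30 and 2.77 CPM in sgNDUFS4, on 43 to 59 and 72 to 79 reads. The groups did not overlap, as in 57.2% of all genes tested. The log2 fold change was 0.31 (SE 0.21, 95% confidence interval -0.12 to 0.74, limma adjusted p = 0.23). With limma without a mean-variance trend it passed (0.31, adjusted p = 0.025), and it did not pass in the other 16 fits that could test it (adjusted p of 0.16 to 0.46). In GENCODE M21 an antisense gene covers 511 exonic bases of Cd274 (14.1%), another gene model on the opposite strand covers 416 of Cd276 (11.4%) and an antisense gene covers 135 of Nectin2 (3.86%), and reads without strand cannot be told apart there. The log2 ratio of Cd276 to Cd274 was 1.29, 1.14 and 1.07 in sgControl and 1.88, 1.72 and 1.84 in sgNDUFS4, a difference of 0.65 (exact permutation p = 0.1, adjusted p = 0.1 over 5 ratios).

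Lgals9, which encodes galectin-9, rose. Lgals9 (ENSMUSG00000001123.15, chromosome 11, 78962974 to 78984946, minus strand) was at 38.03, 41.1 and 43.7 CPM in sgControl and at 65.0, 60.9 and 57.2 CPM in sgNDUFS4. All sgNDUFS4 libraries were above all sgControl libraries. The mean went from 40.9 ± 2.83 to 61.0 ± 3.92 CPM (SD, n = 3 each), a ratio of 1.49 (log2 fold change 0.57, SE 0.07, limma adjusted p = 6.6e-08).

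Cd47, the signal that restrains phagocytosis, did not pass. Cd47 (ENSMUSG00000055447.19, chromosome 16, 49800533 to 49915010, plus strand) was at 22.7, 20.04 and 21.6 CPM in sgControl and at 22.0, 21.2 and 22.3 CPM in sgNDUFS4. The sgNDUFS4 values lay within the range of the sgControl values. The log2 fold change was 0.03 (SE 0.09, limma adjusted p = 0.83), with a 95% confidence interval of -0.15 to 0.21.

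**Figure D2:**
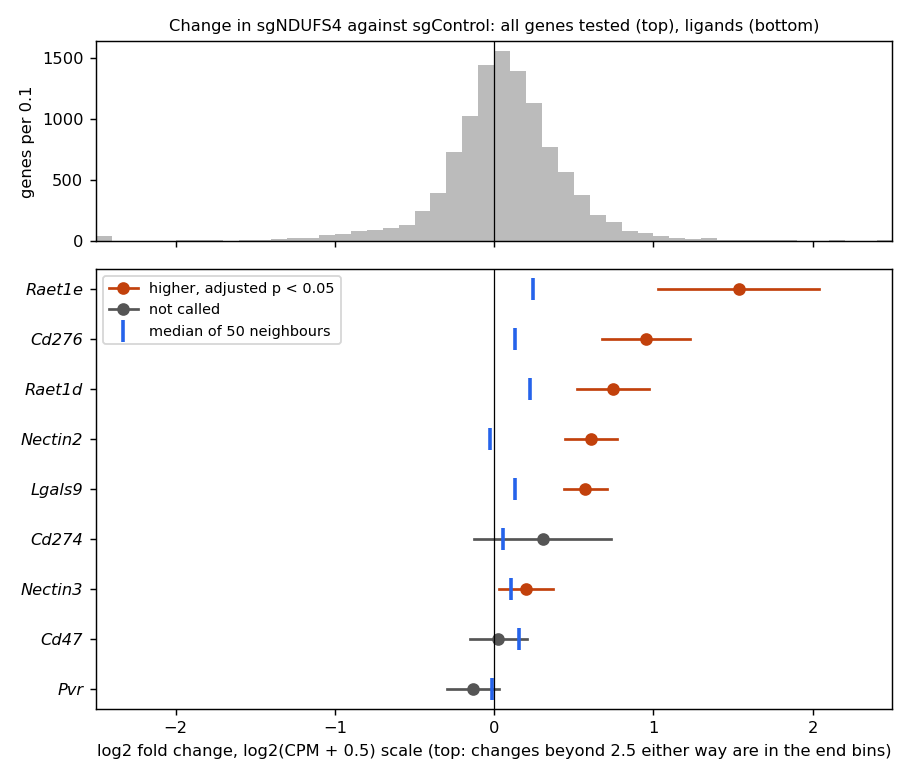
Log2 fold change in sgNDUFS4 against sgControl for all 11063 genes tested (top, genes per bin of 0.1) and for the 9 ligands tested (bottom, point with 95% confidence interval; blue ticks are the median change of the 50 nearest tested genes on the chromosome). The intervals of Raet1e, Cd276, Raet1d, Nectin2, Lgals9 and Nectin3 lie above 0, and those of Cd274, Cd47 and Pvr include 0.

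Changes in these libraries were not even along the genome, so each ligand was set beside its 50 nearest tested neighbours. The median log2 fold change of the neighbours was 0.22 around Raet1d and 0.24 around Raet1e, 0.13 around both Cd276 and Lgals9, and -0.03 around Nectin2. With the neighbours' median change removed from each library, Raet1e was at 1.30, Cd276 at 0.84, Nectin2 at 0.63, Raet1d at 0.52 and Lgals9 at 0.46 on the log2 scale. All 5 still passed (limma adjusted p of 3e-04 or less), with the test of Raet1e limited here too by how it reached the filter. In that fit 21.6% of 10881 genes were called higher and 21.9% lower. Nectin3 was then at 0.12 (adjusted p = 0.27) beside a neighbour median of 0.11. Cd47 was at -0.10 (adjusted p = 0.36) beside a neighbour median of 0.16.

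Promoter windows of 300 bases (250 before to 50 after a start) were found in the RefSeq table for 8 of the 10 genes, 10 windows in all. Nectin1 and Pvr had no entry. Both strands were searched for GAAA and GAAA with any 2 bases between (interferon-stimulated response element), TTCNNNGAA (gamma-activated site), GGG and TTTCC with any 2 bases between (kappaB site), TGACGTCA (cAMP response element), CACGTG (E-box), TCATGTG (M-box, bound by MITF), TGACNNNGC (antioxidant response element) and GGGCGG (GC box). The stretches of the ligands that rose and held a match other than the GC box follow, on the gene's strand (GRCm38.p6), with matches in capitals.

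Lgals9, chr11:78984925-78985174, minus strand: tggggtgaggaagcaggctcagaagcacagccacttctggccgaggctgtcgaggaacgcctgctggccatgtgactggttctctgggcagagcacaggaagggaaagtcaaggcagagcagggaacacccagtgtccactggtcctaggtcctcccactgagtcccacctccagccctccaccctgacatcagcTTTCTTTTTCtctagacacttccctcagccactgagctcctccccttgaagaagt

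Nectin2, chr7:19749574-19749823, minus strand: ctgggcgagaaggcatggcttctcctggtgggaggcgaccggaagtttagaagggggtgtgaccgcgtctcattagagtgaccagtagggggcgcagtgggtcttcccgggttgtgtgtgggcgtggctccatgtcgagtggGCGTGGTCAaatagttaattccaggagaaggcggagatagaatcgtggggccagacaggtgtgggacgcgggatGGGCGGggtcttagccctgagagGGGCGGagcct

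In Lgals9 the capitals mark the interferon-stimulated response element, which begins 55 bases before the start and is read on the opposite strand. A second match lies after the start and is not shown. This motif was in 3.44% of all 32851 windows and in 1 of the 10 windows of the ligands. In Nectin2 the capitals mark an antioxidant response element read on the opposite strand, a motif found in 12.4% of all windows, and GC boxes. The matches shown did not overlap one another. A cAMP response element of Nectin2, present in 1.79% of all windows, lies after the start. The GC box was in 9 of the 10 windows, against 35.7% of all windows, and Lgals9 was the one window without it. The windows behind these shares were not limited to genes tested here, and the share among tested genes was not computed. The 10 windows are not all distinct, since the Cd47 windows overlap and the Raet1d window nearly repeats 1 of Raet1e. None of the 10 windows held a gamma-activated site, a kappaB site, an E-box or an M-box, which were in 8.3%, 1.63%, 7.15% and 3.77% of all windows. These matches describe the letters of the reference, and no binding was measured.

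Levels of different genes were compared per kilobase of merged exons. In sgControl, Lgals9 was highest at 19.1 ± 1.32 CPM per kilobase, followed by Raet1d at 7.59 ± 0.553, Nectin2 at 6.74 ± 0.162, Pvr at 4.86 ± 0.396 and Cd47 at 3.42 ± 0.213 (SD, n = 3 each). Nectin3 at 2.18 ± 0.206, Cd276 at 1.58 ± 0.124, Cd274 at 0.633 ± 0.0502 and Raet1e at 0.422 ± 0.151 CPM per kilobase came next, and Nectin1 was last at 0.0088. No 2 neighbours in this order overlapped between their libraries, although Raet1e at up to 0.576 and Cd274 from 0.591 came close. In sgNDUFS4 the order was the same except in 2 places. Cd276 at 3.17 ± 0.108 stood above Nectin3 at 2.510 ± 0.135, and Raet1e at 1.63 ± 0.130 stood above Cd274 at 0.816 ± 0.0832 CPM per kilobase, each without overlap. Merged exon length counts all annotated isoforms, which lowers the value of a gene with many, such as Nectin3 with 12.7 kilobases.

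**Figure D3:**
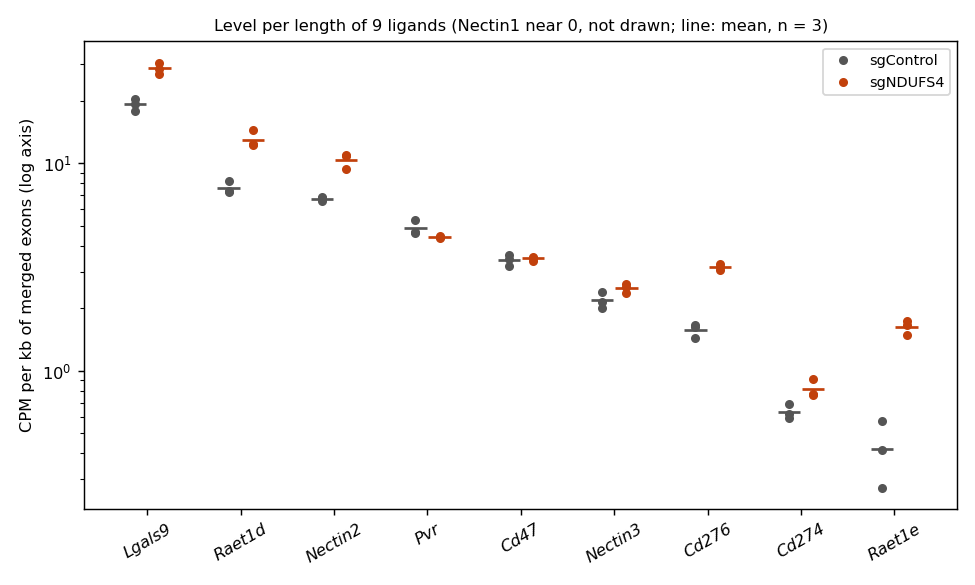
CPM per kilobase of merged exons (vertical log axis) of 9 ligands in the 3 sgControl and 3 sgNDUFS4 libraries, ordered by the sgControl mean; points are libraries and lines are means. Lgals9 is highest in both groups, and Cd276 and Raet1e move up past Nectin3 and Cd274 in sgNDUFS4.

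Of 22 further checkpoint, B7 and TNF-superfamily genes, 6 reached the filter. Among these 0 rose and 1 fell, beside 31.8% and 20.3% of all genes tested, and the median log2 fold change was -0.18. The one that fell was Ido1, a tryptophan-degrading enzyme, from 1.78 ± 0.571 to 0.634 ± 0.172 CPM (SD, n = 3 each). Ido1 reached the filter only through sgControl, since its sgNDUFS4 mean was below 1 CPM, on 12, 15 and 21 reads. The T-cell costimulator Tnfsf9 (4-1BB ligand) was at 12.5 ± 1.74 and 15.6 ± 2.90 CPM (limma adjusted p = 0.052), and the nuclear protein Hmgb1 was at 170.8 ± 4.48 and 168.8 ± 1.80 CPM. Pdcd1lg2, which encodes PD-L2, Cd86 and Cd70 had 0 reads in every library. Those names, and those in the next paragraph at or near 0, were picked after their values were seen.

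Of 21 further genes, listed as ligands of NK-cell receptors or as death receptors, 5 could be tested. Among these 1 rose and 1 fell, beside 31.8% and 20.3% of all genes tested. Tnfrsf10b, the mouse receptor for the death ligand TRAIL, rose from 6.46 ± 0.343 to 12.2 ± 0.402 CPM (SD, n = 3 each). Pcna, a DNA replication clamp that NKp44 can bind in humans, fell from 475.1 ± 17.6 to 402.1 ± 12.99 CPM. Bag6 and Vim were at log2 fold changes of 0.07 and 0.06 and did not pass. Of the NKG2D ligands other than Raet1d and Raet1e, H60b and H60c had 0 reads in all 6 libraries. Since H60b shares exonic bases with Raet1e, its count of 0 also rests on how shared reads were counted. Ulbp1 had its only reads in sgControl replicate 1, at 0.149 CPM. Raet1a, Raet1b, Raet1c and H60a have no row and were not analysed here.

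Of 18 tested partners of nectins and of adherens junctions, 9 rose and 4 fell (median 0.11), beside 31.8% and 20.3% of all genes tested. With TMM scaling 6 rose and 4 fell, beside 24.9% and 25.8% of all genes tested. With the neighbours' change removed 4 rose and 5 fell, beside 21.6% and 21.9%. Of the 4 that fell in the main fit, Cdh1 reached the filter only through sgControl. It was at 1.75 ± 0.530 CPM in sgControl and 0.647 ± 0.429 CPM in sgNDUFS4 (SD, n = 3 each, named after its value was seen). The catenins Ctnna1 and Ctnnd1, which tie cadherins to actin, rose, Ctnna1 from 351.1 ± 10.3 to 421.0 ± 6.28 CPM and Ctnnd1 from 164.8 ± 5.25 to 203.5 ± 5.49 CPM (SD, 3 libraries each). Cadm4, a nectin-like adhesion molecule, fell from 464.5 ± 19.4 to 233.7 ± 5.42 CPM, and the immunoglobulin superfamily protein Igsf8 fell from 129.1 ± 4.78 to 72.7 ± 1.12 CPM. Cadm1, a nectin-like ligand of CRTAM, and the small GTPase Rap1b were at log2 fold changes of 0.10 and -0.03 and did not pass.

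Of 28 genes that act on PD-L1 expression or stability, all tested, 9 rose and 5 fell (median 0.05), beside 31.8% and 20.3% of all genes. With TMM scaling 5 rose and 9 fell, beside 24.9% and 25.8% of all genes. Hip1r, which sends PD-L1 to lysosomes, fell from 19.9 ± 2.15 to 6.45 ± 0.808 CPM, and Btrc, a ubiquitin ligase subunit, fell from 60.8 ± 2.87 to 46.6 ± 0.569 CPM (SD, n = 3 each). Usp22, a deubiquitinase, rose from 35.7 ± 2.25 to 61.1 ± 2.24 CPM. The palmitoyltransferase Zdhhc9 on chromosome X fell by 1.17 on the log2 scale beside a neighbour median of -0.78, and was at -0.38 (adjusted p = 0.027) with the neighbours' change removed. The co-repressor Trim28 and the oligosaccharyltransferase subunit Stt3a were at -0.06 and 0.03 and did not pass, but Trim28 passed with TMM scaling (-0.12, adjusted p = 0.0035).

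Of 19 tested genes of NKG2D ligand induction and shedding, 7 rose and 5 fell (median 0.04), beside 31.8% and 20.3% of all genes. With TMM scaling 5 rose and 6 fell, beside 24.9% and 25.8% of all genes. The heat shock factor Hsf1 fell from 162.1 ± 2.37 to 122.2 ± 3.55 CPM and the cell cycle transcription factor E2f1 fell from 62.5 ± 1.47 to 43.7 ± 3.12 CPM (SD, 3 libraries each). Hsf1 had a neighbour median of -0.20 and was at -0.18 (adjusted p = 0.0027) with that removed. The histone methyltransferase Ezh2 and the membrane protease Mmp14 rose by 0.23 and 0.22 on the log2 scale. The disulfide isomerase Pdia6 and the protease Adam9 were at 0.06 and -0.03 and did not pass, whereas Adam9 passed with TMM scaling (-0.09, adjusted p = 0.038).

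Of 15 tested genes around CD47, 6 rose and 4 fell (median 0.04), beside 31.8% and 20.3% of all genes. With TMM scaling 3 rose and 6 fell, beside 24.9% and 25.8% of all genes. Thbs1, the secreted CD47 ligand thrombospondin-1, rose from 21.2 ± 4.59 to 74.2 ± 4.45 CPM, and Lrp1, a receptor of calreticulin on phagocytes that these cells also expressed, rose from 239.7 ± 3.42 to 358.1 ± 7.79 CPM (SD, n = 3 each). The annexin Anxa1 fell from 608.5 ± 6.74 to 434.3 ± 23.8 CPM. Calr and Slc3a2 were at 0.04 and -0.03 and did not pass. Sirpa, the receptor of CD47, was itself expressed, at 106.5 ± 1.31 and 99.95 ± 3.92 CPM. Its change of -0.09 on the log2 scale did not pass (limma adjusted p = 0.095), and it passed with TMM scaling (-0.15, adjusted p = 0.0073).

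**Figure D4:**
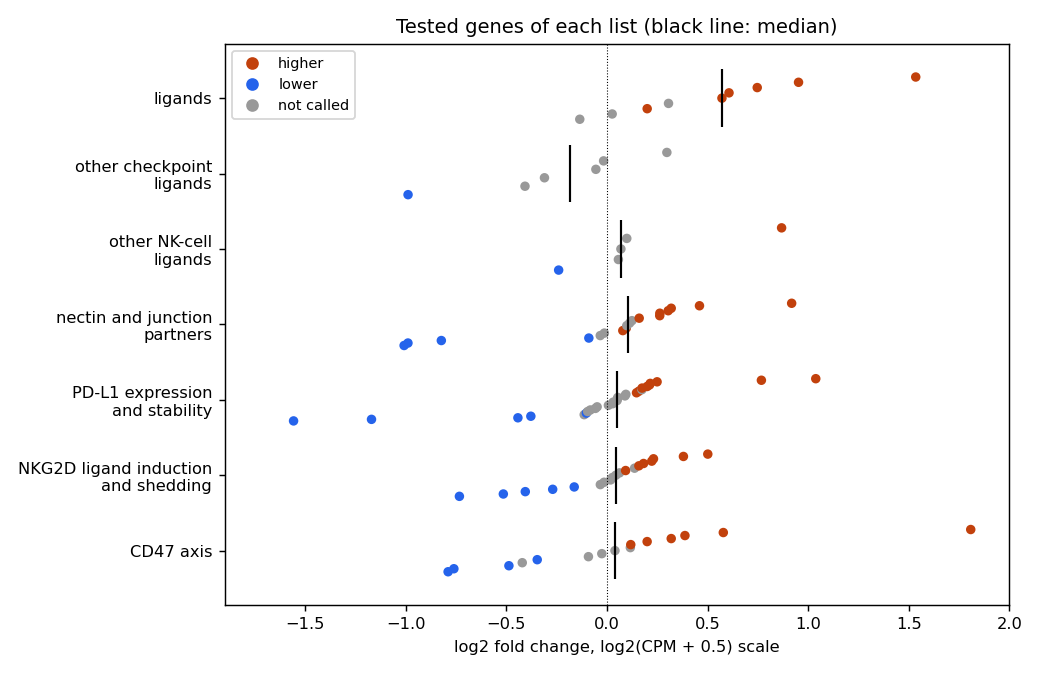
Log2 fold change (horizontal axis) of every tested gene in the ligand set and 6 surrounding gene lists, 1 point per gene, coloured by the limma call at an adjusted p below 0.05; black lines are medians. The ligands have a median of 0.57, and the medians of the other 6 lists lie between -0.18 and 0.11. The ligands and lists were chosen with earlier results of these data known, so their medians are descriptive only.

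Of 14 listed receptors of these or related ligands, an adaptor among them, Sirpa alone was above 1 CPM and 10 were at 0 in every library. All 10 NK-cell markers, all 5 endothelial markers and 7 of 8 T-cell markers were at 0 in every library. The 9 myeloid markers, none at 0 in every library and led by Lyz2 at 3.49 ± 1.33 and 4.34 ± 1.602 CPM, summed to between 8.62 and 16.5 CPM in sgControl and between 6.74 and 16.2 CPM in sgNDUFS4, so the groups overlapped. One of them, Cd68, was lower in sgNDUFS4 at 4.84 ± 1.43 and 2.64 ± 1.34 CPM (log2 fold change -0.81, limma adjusted p = 0.0082; named after its value was seen), and its part in the ligand results was not tested. The 4 B-cell markers summed to at most 0.548 CPM. The 6 fibroblast markers, led by Col1a2 and Col1a1 at 31.5 ± 2.79 and 9.15 ± 2.11 CPM in sgControl and at 33.3 ± 2.13 and 6.96 ± 0.642 CPM in sgNDUFS4, summed to between 41.8 and 44.1 CPM and between 41.4 and 46.1 CPM, while Dcn, Lum and Thy1 were at 0. The part of these transcripts in the ligand results was not tested. The 7 melanoma markers were all present, and summed to between 15409 and 15927 CPM in sgControl and between 14508 and 15533 CPM in sgNDUFS4. Of these markers 2 rose and 5 fell, beside 31.8% and 20.3% of all genes tested. Their sum rests on Tyrp1, Pmel and Dct. The marker Tyr, the gene of the pigment enzyme tyrosinase, was at 32.3 ± 1.57 CPM in sgControl and fell to 3.10 ± 0.436 CPM in sgNDUFS4 (SD, 3 libraries each; log2 fold change -3.19, limma adjusted p = 5.3e-17; named after its value was seen).

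**Figure D5:**
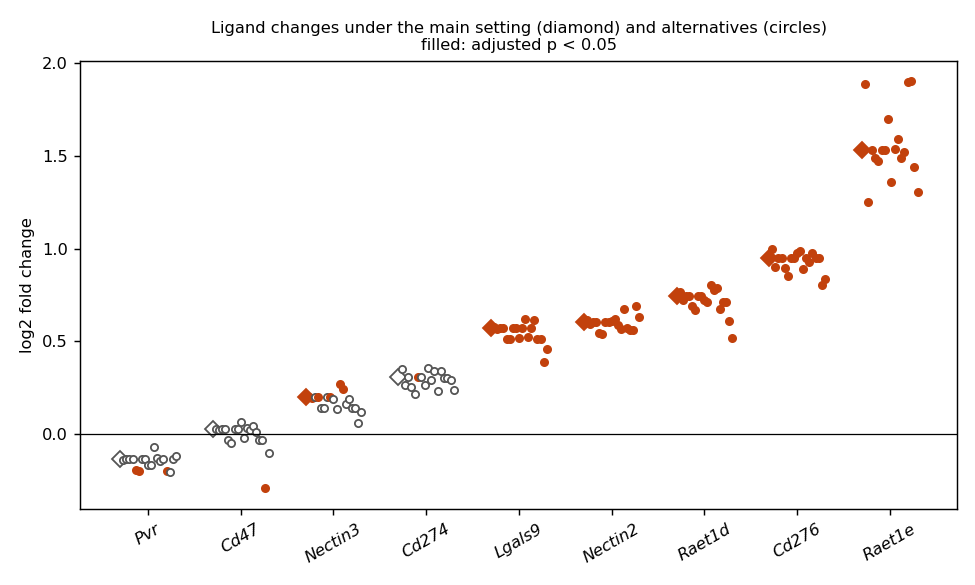
Log2 fold change (vertical axis) of the 9 ligands tested under the main setting (diamond) and the alternative fits (circles); filled symbols passed at an adjusted p below 0.05. Raet1e, Cd276, Raet1d, Nectin2 and Lgals9 passed in every fit that could test them, while Nectin3, Cd274, Pvr and Cd47 changed side of the threshold between fits. Raet1e reached the filter of 1 CPM only through the sgNDUFS4 libraries, which limits its calls.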

How the data were processed

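Polyadenylated RNA was sequenced in pairs without keeping the strand, per the labels' protocols. The authors deposited CPM values, scaled to each library's reads counted in genes; the submitters' processing notes name HISAT2 and GRCm38; the counting tool, annotation and filters were not given in the sources used here. Whole reads were recovered from the CPM steps (99.984% to 100% of values above 0 within 0.01), and edgeR on them called 2723 genes higher and 2860 lower. Groups came from the sample titles. The main test was limma with a mean-variance trend on log2(CPM + 0.5) where the mean reached 1 CPM, two-sided, Benjamini-Hochberg adjusted over 11063 genes, threshold 0.05 (R 4.3.3, limma 3.58.1, edgeR 4.0.16, DESeq2 1.42.0), and the scripts were tested on simulated data. Differences are sgNDUFS4 minus sgControl. Positions, lengths and exon overlaps came from GENCODE M21 and promoters from RefSeq (GRCm38.p6), matched by symbol.

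The ligands and gene lists were chosen with earlier results of these data known. Named genes are the 10 ligands, Ndufs4, per list up to 4 called genes with the smallest p and up to 2 uncalled ones with the highest mean, the 3 highest markers of other cell types, and receptors above 1 CPM. One gene that this rule names is not reported here. Libraries of 1 group differed beyond counting error (3.55 to 5.27 chi-square units per gene, against 41.9 to 50.1 across groups). No library was therefore a copy of another within counting error. This cannot tell separate cultures from repeated preparations of the same culture.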

Additional observations from a re-analysis of the deposited data

How the results depend on the processing

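Each ligand was refitted under up to 18 alternatives: pseudocounts of 0.1 and 1, no filter or one of 5 CPM, TMM and quantile scaling, limma without trend, the replicate block, omission of each library, 2 count models on recovered reads (edgeR, DESeq2), and 2 forms of regional centring. The form that removes the neighbours' change was chosen after seeing the data, because the planned form, which removes the median level of the neighbours, moves with whichever gene is in the middle. Raet1d, Nectin2, Lgals9 and Cd276 passed in 18 of 18 and Raet1e in all 17 that could test it (a filter of 5 CPM leaves out Raet1e and Cd274). Raet1e reached the filter of 1 CPM only through the sgNDUFS4 libraries, which limits its calls under that filter. With no filter on low values it was at 1.53 (limma adjusted p = 0.00013). Between 5 and 6 ligands were higher in each of the 18 alternatives, those with a library left out included. One ligand was lower, against 0, with TMM scaling (1), quantile normalization (1) and edgeR (1), in each case Pvr, and with centring on neighbour levels (1), where Cd47 reversed to -0.29 (adjusted p = 0.014). That last form also gave 2012 genes higher, against 3514. Nectin3 was between 0.06 and 0.27 and passed in 6 of 18. With a library left out, 3009 to 3401 genes were higher, 1952 to 2184 were lower and 0 ligands were lower. Labels share replicate numbers, and deviations of same-numbered libraries had correlations of 0.056, 0.012 and 0.097. Differently numbered libraries had correlations of -0.087 to 0.035. All were small, so the numbers were not taken as pairs in the main fit. The replicate block, which uses the numbers, gave 3632 genes higher and 2309 lower. It gave 6 ligands higher and 0 lower, with no call of a ligand changed. The ratio of Nectin2 to Nectin1 went from 0.73 to 1.05 with a pseudocount of 0.1. Depth limits Cd274, Raet1e and Nectin1, which rest on at most 93 reads in a library.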
